A study of Mus musculus with 7 samples.

Results

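Transcripts of 10 genes of inward rectifier (Kir) and tandem-pore (K2P) potassium channels were followed in differentiating mouse oligodendroglia with and without KLF13, a Krüppel-like transcription factor. The 10 genes were chosen by name out of the 49315 genes counted, with earlier results of these data known. Kcnj2, Kcnj3, Kcnj6, Kcnj9, Kcnj10 and Kcnj16 encode Kir subunits, and Kcnk1, Kcnk2, Kcnk3 and Kcnk10 encode K2P subunits. The RNA came from primary oligodendroglial cultures of Klf13-knockout pups (3 libraries) and of wildtype controls (4 libraries). Precursor cells had been shaken off mixed glial cultures of newborn mouse brain of both sexes, depleted of microglia, and kept in SATO medium for 6 days to differentiate. The knockout was not restricted to oligodendroglia, so that any other cells in these cultures carried the deletion as well. The labels call the libraries biological replicates, and whether a culture came from 1 pup or from several is not given in the sources used here.

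Kir channels pass potassium more easily into the cell than out of it and hold the membrane close to the potassium equilibrium potential. K2P channels carry a background leak of potassium that is tuned by pH, stretch, lipids and G protein signalling. In white matter, Kir channels of oligodendrocytes and astrocytes are known for taking up the potassium that axons release, and the G protein-gated Kir subunits and several K2P channels are best known from neurons.

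Klf13 was measured at 10915, 11769, 11999.5 and 10669.9 normalised counts in control replicates 1 to 4 and at 802, 876 and 961 in knockout replicates 1 to 3. A normalised count is the number of reads on a gene after scaling the libraries to a common size. The log2 fold change of Klf13 was -3.69 (standard error, SE, 0.09), with an adjusted p of 6.77e-06 by edgeR's quasi-likelihood test. The libraries held 24507471 to 59596479 counts on genes, and 6.03% to 17.95% of them lay on genes that collect ribosomal RNA reads, in both groups. All 12 markers of myelinating oligodendrocytes were detected and all 12 fell, with summed levels of 5261 to 5723 RPKM (reads scaled for exon length and library size) in controls and 1612 to 1878 in knockouts. The 8 markers of precursors summed to 241 to 275 RPKM in controls and 280.0 to 302 in knockouts. Markers of other cells were present in all libraries. The 12 astrocyte markers summed to 613 to 796 RPKM in controls and 1099 to 1284 in knockouts, and 9 of them rose. Of the 14 neuronal markers 13 were tested and 10 rose, and the list summed to 64.0 to 91.4 RPKM in controls and 152 to 222 in knockouts. Microglial markers stood apart in control replicate 3, at 1379.7 RPKM against 313 to 369 in the other controls, and in knockout replicate 3, at 664 against 331 and 394, and none of these 10 markers passed the test in either direction (0 at an unadjusted p under 0.05 as well). Fibroblast and mural cell markers summed to 85.6 to 242 RPKM in controls, with control replicates 3 and 4 high, and to 45.1 to 86.8 in knockouts. Endothelial markers summed to at most 4.3 RPKM. No marker was at 0 in all libraries, and 1 endothelial marker, Cldn5, had no more than 3 counts in any library. In RNA from whole cultures, fewer cells of a type and less RNA per cell cannot be told apart, and the part that the mixture of cells had in the values below was not tested.

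Because KLF13 belongs to a family of factors that bind GC-rich and CACCC-type DNA elements, the 250 bases before the start of each gene were searched on both strands for 6 words of this type, which read ACNCCC or CCNCCC with any base but C at the N. Words could overlap each other. The sequences are those of RefSeq on build GRCm38.p6, and 9 of the 10 genes were matched. Kcnk3 had no entry. Shown are the genes with 1 annotated start whose transcripts passed the test between knockout and control. They are given 5′ to 3′ on the gene's strand, with the words, or their complement where the match lies on the opposite strand, in capitals.

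Kcnj10, chr1:172340960-172341209, plus strand: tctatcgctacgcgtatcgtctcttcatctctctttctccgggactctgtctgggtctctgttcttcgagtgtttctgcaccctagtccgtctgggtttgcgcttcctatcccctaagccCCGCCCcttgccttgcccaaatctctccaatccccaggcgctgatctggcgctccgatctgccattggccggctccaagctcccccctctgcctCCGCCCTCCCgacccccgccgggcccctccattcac

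Kcnj3, chr2:55435720-55435969, plus strand: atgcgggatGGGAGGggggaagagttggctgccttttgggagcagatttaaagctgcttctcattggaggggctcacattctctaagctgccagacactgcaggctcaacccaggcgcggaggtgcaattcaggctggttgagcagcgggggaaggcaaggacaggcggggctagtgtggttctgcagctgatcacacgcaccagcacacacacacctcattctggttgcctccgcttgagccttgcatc

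Kcnk1, chr8:125994852-125995101, plus strand: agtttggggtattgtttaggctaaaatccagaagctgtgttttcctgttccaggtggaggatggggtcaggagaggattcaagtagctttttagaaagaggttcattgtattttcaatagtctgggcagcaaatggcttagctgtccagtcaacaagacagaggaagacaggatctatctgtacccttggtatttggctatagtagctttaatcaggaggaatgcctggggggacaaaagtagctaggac

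The Kcnj10 window held 3 matches, all on the gene's strand, of which 2 overlapped in 1 run of capitals. The Kcnj3 window held 1 match on the opposite strand, and the Kcnk1 window held 0. Among all 32851 RefSeq windows of this length, 72.6% held at least 1 match, with a median of 1 and quartiles of 0 and 3. At least 3 matches, as upstream of Kcnj10, were found in 33.0% of them. The genes with several starts differed between their windows: the 4 windows of Kcnk2 held 2, 8, 2 and 0 matches and the pair of Kcnj6 windows 10 and 2. At least 8 matches occurred in 2.81% of all windows and at least 10 in 0.874%. Of the 17 windows of the 9 genes, 13 held a match. The matches are letters in a window and show no binding.

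Across the 10 channel genes, 4 rose in Klf13-knockout cells (Kcnj3, Kcnk1, Kcnk2 and Kcnk10) and 1 fell (Kcnj10), at an adjusted p of at most 0.05 by edgeR's quasi-likelihood test over all 18352 genes tested. All 10 genes were among those tested. In the same comparison 11.6% of all tested genes rose and 12.2% fell. Kcnj3 was the member that also reached a log2 fold change of 1, a size at which 3.97% of tested genes rose and 3.08% fell. No member fell by that much and passed the test, while 6 of the 10, beside 36.6% of all tested genes, had an unadjusted p under 0.05. DESeq2's Wald test called none in either direction at that size, since its estimate for Kcnj3 was just under 1. The median log2 fold change of the members was 0.52, with a range of -1.04 to 1.01, beside -0.0037 for all tested genes. Since the members were chosen with earlier results of these data known, the comparisons with all tested genes are descriptions only. The libraries of the groups did not overlap for 5 members that were higher and 1 that was lower in knockouts, against 18.3% and 18% of all tested genes, or 36.2% in either direction. The count of genes that rose went from 4 to 2 without knockout replicate 1 and to 1 without knockout replicate 2, and the count that fell went to 0 without control replicate 1, without knockout replicate 1 or 3 and with upper quartile normalization. Without knockout replicate 2 Kcnj10 missed the threshold and Kcnj9 was the member that fell.

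**Figure D1:**
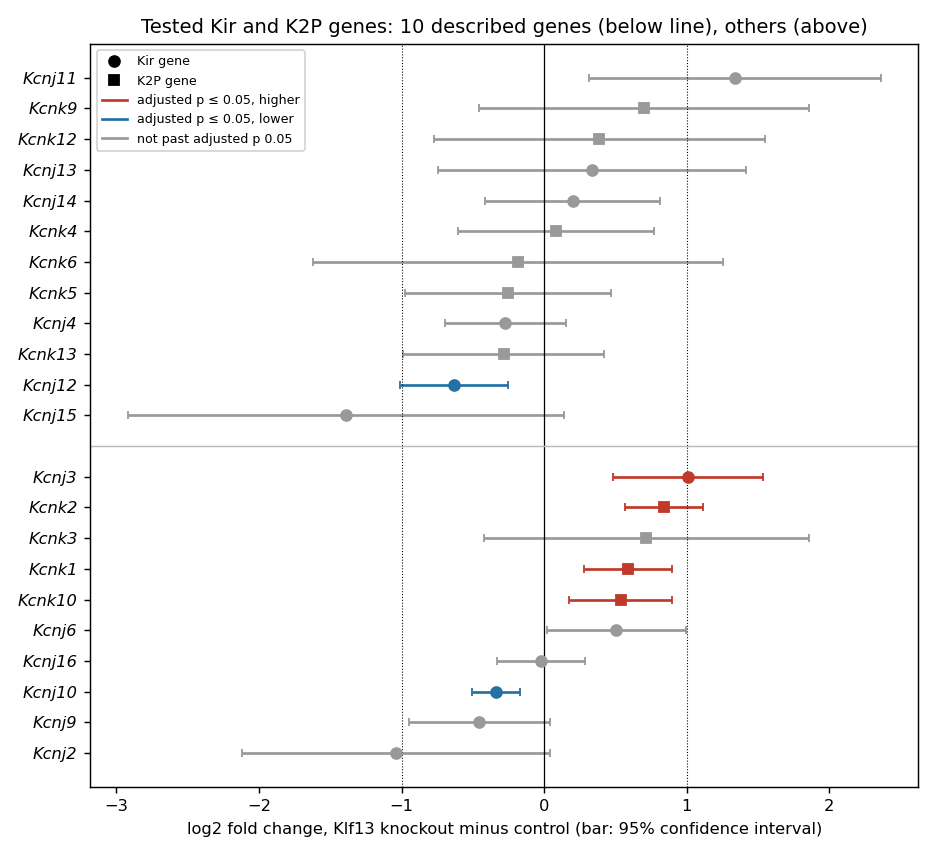
Log2 fold change between Klf13-knockout and control libraries of the 10 channel genes and of the 12 other tested Kir and K2P genes (circles for Kir, squares for K2P), with 95% confidence intervals as bars. Colour marks an adjusted p of at most 0.05. Among the 10, the intervals of Kcnj3, Kcnk1, Kcnk2 and Kcnk10 lie above 0, as does that of Kcnj6, which did not pass after adjustment, and that of Kcnj10 lies below 0, and that of Kcnj2 reaches from -2.12 to 0.04.

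Levels between genes were compared per exon length. In control cells Kcnj10, at 163 RPKM, stood far above every other member, and the order went on with Kcnk1 at 6.48, Kcnj16 at 3.74 and Kcnk2 at 3.33. Kcnk10 (2.43), Kcnj2 (2.08), Kcnj3 (1.76), Kcnj9 (1.12) and Kcnj6 (0.837) followed, each overlapping its neighbour over the 4 libraries, and Kcnk3 was lowest at 0.286 RPKM. Kcnj16 and Kcnk2 overlapped too, and the other neighbours did not. In knockout cells Kcnk2, at 5.98 RPKM, lay above Kcnj16, at 3.69, without overlap of their libraries, and Kcnj3, at 3.54, overlapped Kcnj16 and Kcnk10. Kcnj6 (1.20), Kcnj2 (1.00), Kcnj9 (0.813) and Kcnk3 (0.458) formed the lower end of the knockout order, with overlap between each pair of neighbours.

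**Figure D2:**
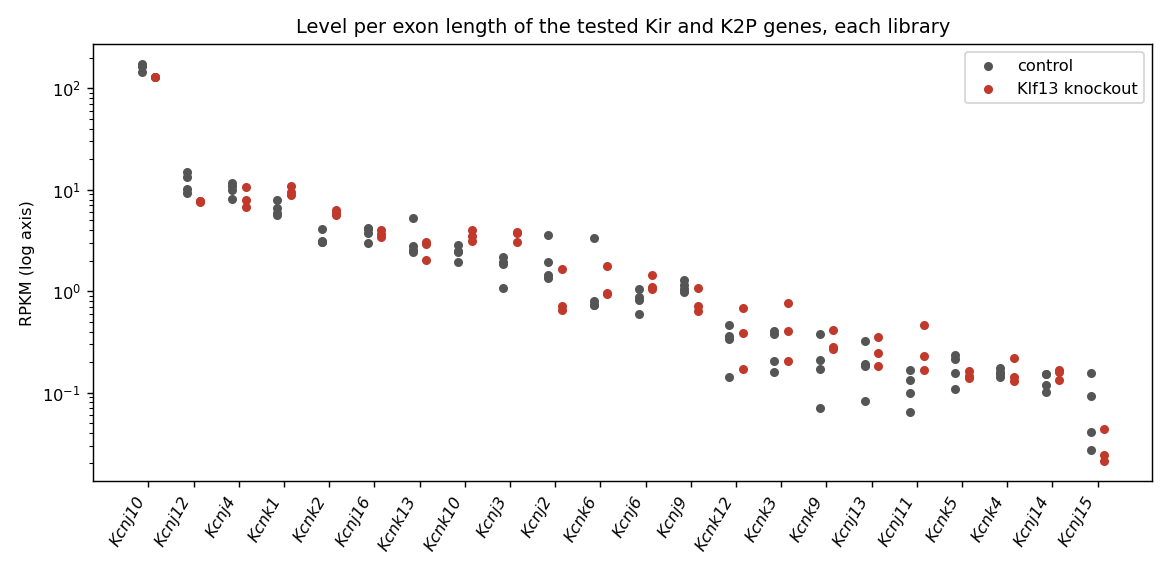
Level in RPKM (log axis) of the 10 channel genes and the 12 other tested Kir and K2P genes in the 4 control and 3 knockout libraries, 1 point per library. Kcnj10 lies at 146 to 174 RPKM in controls and 128 to 131 in knockouts, and Kcnk1, the next of the 10, at no more than 10.8.

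Kcnj10 (ENSMUSG00000044708, chr1:172341210-172374085, plus strand, build GRCm38) encodes Kir4.1, the main Kir subunit of glia. It was measured at 39668, 39360, 34608 and 41448 normalised counts in control replicates 1 to 4. The knockout libraries held 30434, 30489.9 and 31104. All 3 knockout libraries lay below all 4 controls, and control replicate 3 was the lowest control. The means were 38771 ± 2924 (SD, n = 4) and 30676 ± 371 (SD, n = 3), a log2 fold change of -0.34 (SE 0.07, 95% interval -0.51 to -0.17) with an edgeR adjusted p of 0.0157. The adjusted p was 0.0516 without control replicate 1, 0.0770 without knockout replicate 1, 0.0611 without replicate 2 and 0.0554 without replicate 3, and it was 0.0541 with upper quartile normalization. The fall stood beside the much larger fall of the myelinating oligodendrocyte markers (median log2 fold change -2.51) and a rise of the astrocyte markers (median 0.74).

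Kcnj16 (ENSMUSG00000051497, chr11:110968033-111027968, plus strand) encodes Kir5.1, a subunit that joins Kir4.1 in mixed channels. Its values were 708, 651, 514 and 719 normalised counts in controls and 637, 688 and 589 in knockouts. The groups overlapped over most of their range. At a log2 fold change of -0.02 (SE 0.13, 95% interval -0.33 to 0.28, edgeR adjusted p = 0.929) the gene did not pass the test, and its sign was positive under 6 of 18 alternative settings.

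Kcnj2 (ENSMUSG00000041695, chr11:111066164-111076821, plus strand) encodes Kir2.1, a strongly rectifying subunit that sets the resting potential of many cells, and lies 38195 bases downstream of Kcnj16 on the same strand. It held 463, 326, 858 and 346 normalised counts in controls and 157, 169 and 395 in knockouts. Replicate 3 was the highest library in both groups, and knockout replicate 3 reached into the control range. The means were 498 ± 248 (SD, n = 4) and 240.2 ± 134 (SD, n = 3), with a log2 fold change of -1.04 (SE 0.46, 95% interval -2.12 to 0.04, edgeR adjusted p = 0.149). With the replicate number as a block, where control replicate 4 has no partner, the log2 fold change was -1.19 with an edgeR adjusted p of 0.00694. Without both replicate 3 libraries, a setting chosen after seeing the data, it was -1.21 with 0.0193. Without control replicate 3 alone the log2 fold change was -0.64, and without knockout replicate 3 alone it was -1.60.

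The same libraries stood out in the microglial markers. Control replicate 3 and knockout replicate 3 were also the highest of their groups for fibroblast and mural cell markers (242 and 86.8 RPKM). Control replicate 4 came next for these, at 185 RPKM. Endothelial markers, too, were highest of each group in the replicate 3 libraries (4.30 and 2.81 RPKM). Kcnj2 was 2.27-fold higher in control replicate 3 than the mean of the other controls and 2.42-fold higher in knockout replicate 3 than the mean of the other knockouts, in RPKM, where the microglial sum was 4.04-fold and 1.83-fold higher. Kcnk6 and Kcnk13, K2P genes outside the 10, were 4.37-fold and 2.02-fold higher in control replicate 3 and 1.90-fold and 1.16-fold higher in knockout replicate 3. These 3 genes were set beside the microglial markers after their values were seen. The part of microglia, fibroblasts, mural or endothelial cells in them was not tested.

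**Figure D3:**
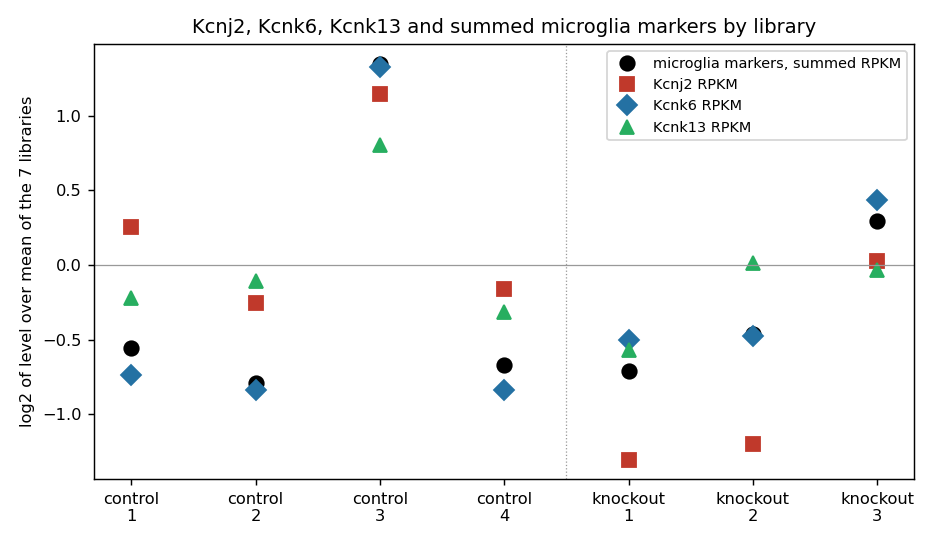
Summed RPKM of 10 microglial markers and RPKM of Kcnj2, Kcnk6 and Kcnk13 in each library, as the log2 of the level over the mean of the 7 libraries. Control replicate 3 is the highest control for all 4, and knockout replicate 3 is the highest knockout for the markers, Kcnj2 and Kcnk6.

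Of the G protein-gated (GIRK) subunits, Kcnj3 rose, while Kcnj6 and Kcnj9 did not pass the test, and the difference between their changes was not tested. Kcnj3 (ENSMUSG00000026824, chr2:55435970-55598145, plus strand) encodes GIRK1, which needs a further GIRK subunit to form a channel at the surface. Its counts were 448, 422, 247 and 495 in controls and 858, 881 and 696 in knockouts, normalised. Every knockout library lay above every control, and replicate 3 was the lowest library of both groups. The means of 403 ± 108 (SD, n = 4) and 811 ± 101 (SD, n = 3) differed 2.01-fold, a log2 fold change of 1.01 (SE 0.23, 95% interval 0.48 to 1.53, edgeR adjusted p = 0.0184). The adjusted p was 0.0612 without knockout replicate 1 and 0.0682 without knockout replicate 2. Without control replicate 3 the log2 fold change was 0.83 (adjusted p 0.00670), and without both replicate 3 libraries it was 0.93 (0.00680), so that Kcnj3 still rose but no longer reached 1. The antisense gene Gm26794 shares 1621 of the 5215 exonic bases of Kcnj3 (31.1%) and held 408 counts in all libraries against 4167 for Kcnj3, and since the strand setting of the counting is not given in the sources used here, reads of the pair may not have been told apart.

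Kcnj6 (ENSMUSG00000043301, chr16:94749266-94997696, minus strand) encodes GIRK2, a partner of GIRK1 in neurons. It was measured at 211, 224, 151 and 269.6 normalised counts in controls and 367, 270.8 and 279 in knockouts. The knockout libraries lay above the controls, but knockout replicate 2, at 270.8, was barely above control replicate 4. Kcnj6 had a log2 fold change of 0.51 (SE 0.21, 95% interval 0.02 to 1.00), and the edgeR adjusted p of 0.125 missed the threshold. Kcnj9 (ENSMUSG00000038026, chr1:172320501-172329318, minus strand) encodes GIRK3 and lies 11891 bases from Kcnj10, transcribed away from it. Its values were 184, 245, 218 and 198 in controls and 121, 205 and 134 in knockouts. Knockout replicate 2 lay within the control range and the other knockouts below it. Kcnj9 had a log2 fold change of -0.45 (SE 0.21, 95% interval -0.95 to 0.04, edgeR adjusted p = 0.168), which moved with the knockout libraries: it was -0.72 without replicate 2 (adjusted p 0.0478), -0.30 without replicate 1 (0.418) and -0.35 without replicate 3 (0.370).

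Among the K2P genes, Kcnk2, Kcnk10 and Kcnk1 rose and Kcnk3 did not pass the test. Kcnk2 (ENSMUSG00000037624, chr1:189207930-189402273, minus strand) encodes TREK-1, a channel opened by stretch and polyunsaturated lipids. Its values were 669.7, 886, 681 and 661 normalised counts in controls and 1231, 1386 and 1279.5 in knockouts. The lowest knockout library lay well above the highest control, replicate 2, and replicate 2 was the highest library in both groups. The means of 724 ± 108 (SD, n = 4) and 1299 ± 79.4 (SD, n = 3) differed 1.79-fold, a log2 fold change of 0.84 (SE 0.12, 95% interval 0.57 to 1.12, edgeR adjusted p = 0.00367). It passed the test in all 18 alternative settings, with log2 fold changes of 0.79 to 0.95. The antisense gene A430027H14Rik shares 12.2% of its exonic bases and held 101 counts against 7058.

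Kcnk10 (ENSMUSG00000033854, chr12:98433994-98577940, minus strand) encodes TREK-2, the close relative of TREK-1. It was measured at 270.0, 318, 280.0 and 216 normalised counts in controls and 388, 347 and 444 in knockouts. The knockout libraries lay above all controls. Kcnk10 had a log2 fold change of 0.54 (SE 0.15, 95% interval 0.18 to 0.90, edgeR adjusted p = 0.0424), a 1.45-fold rise that passed the test in 8 of the 18 alternatives. With the replicate number as a block it was 0.44 with an adjusted p of 0.0978, and without both replicate 3 libraries the adjusted p was 0.154. Leaving out 1 library at a time, it passed without control replicate 2 alone (adjusted p 0.0356). Without control replicate 1, 3 or 4 the adjusted p was 0.0697, 0.0651 or 0.0585, and without knockout replicate 1, 2 or 3 it was 0.0919, 0.0649 or 0.116.

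Kcnk1 (ENSMUSG00000033998, chr8:125995170-126030685, plus strand) encodes TWIK-1, a weakly conducting K2P subunit of neurons and astrocytes. It held 644, 770.3, 574 and 558 normalised counts in controls and 868, 1063 and 941 in knockouts. The groups did not overlap, and replicate 2 was again highest in both. The means of 636 ± 96.7 (SD, n = 4) and 957 ± 98.2 (SD, n = 3) differed 1.51-fold, a log2 fold change of 0.59 (SE 0.13, 95% interval 0.28 to 0.90, edgeR adjusted p = 0.0183). The adjusted p was 0.0724 without knockout replicate 2 and 0.0725 without both replicate 3 libraries. Kcnk3 (ENSMUSG00000049265, chr5:30588170-30625271, plus strand) encodes TASK-1, an acid-sensitive leak channel. It was low, with 66.2, 70.4, 35.4 and 28.1 normalised counts in controls and 36.1, 134 and 70.1 in knockouts. The groups overlapped and the highest value came from knockout replicate 2. Kcnk3 had a log2 fold change of 0.72 (SE 0.49, 95% interval -0.42 to 1.85, edgeR adjusted p = 0.342), an interval that includes a fall as well as a rise. Without knockout replicate 2 the log2 fold change was 0.13 (adjusted p 0.883). Its antisense neighbour Gm9899 held 101 counts against 487 for Kcnk3 and shares 5.76% of its exonic bases.

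The 4 genes that rose stood beside higher summed levels of the neuronal, astrocyte and precursor markers in every knockout library. Of the 8 precursor markers 2 rose, beside 11.6% of all tested genes, and 2 others had log2 fold changes below 0, C1ql1 (-0.25) and Matn4 (-0.55). Below 0 were also the neuronal markers Nefl (-0.45) and Nefm (-0.73) and the astrocyte marker Fgfr3 (-0.22). In the neuronal sum, Tubb3 alone held 49.1 of a mean of 75.4 RPKM in controls and 81.1 of 181 in knockouts. Knockout replicate 2 was highest for the neuronal (222 RPKM) and astrocyte sums (1284) and for Kcnj3, Kcnk1 and Kcnk2, whereas Kcnk10 was lowest there. Among controls, replicate 2 had the highest neuronal (91.4 RPKM) and astrocyte (796) sums and the highest Kcnk1, Kcnk2 and Kcnk10 values. Control replicate 4 had the lowest sums of both (64.0 and 613) and the highest Kcnj3 value. The order of the astrocyte sums leans on Gfap, which alone held 352, 389, 439 and 280 RPKM in control replicates 1 to 4. The astrocyte sums there were 747, 796, 727 and 613 RPKM. Apart from Slc17a7, at 0 counts in knockout replicate 1, every neuronal and astrocyte marker had counts in every library. The part of these cells in the rise was not tested.

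**Figure D4:**
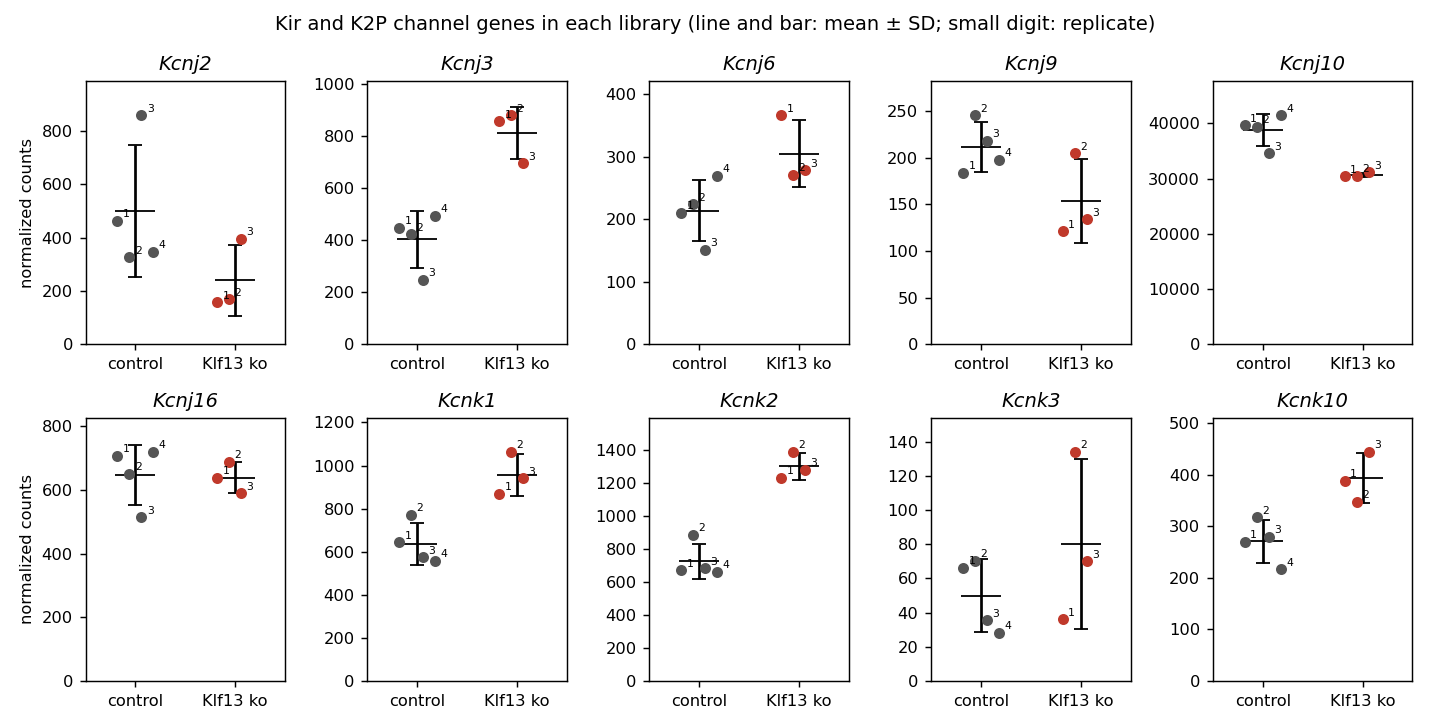
Normalised counts of the 10 channel genes in each control (4) and knockout (3) library, 1 panel per gene, with lines for the group mean and bars for the SD. The groups are apart for Kcnj3, Kcnj6, Kcnj10, Kcnk1, Kcnk2 and Kcnk10, and for Kcnj6 the nearest libraries are at 269.6 and 270.8.

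Summed over all 29 Kir and K2P genes, the level per length was 211, 215, 202 and 225 RPKM in controls and 176, 185 and 182 in knockouts. Every knockout library lay below every control. Kcnj10 made up 78.9%, 76.8%, 71.9% and 77.6% of this sum in controls and 72.6%, 69.4% and 71.9% in knockouts. Without Kcnj10 the sum was 44.6, 49.9, 56.9 and 50.3 RPKM in controls and 48.4, 56.5 and 51.0 in knockouts, and the groups overlapped. The K2P genes alone summed to 16.8, 19.8, 21.1 and 14.9 RPKM in controls and 22.04, 26.5 and 25.8 in knockouts, with all knockouts above all controls. These sums are descriptions and were not tested.

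The 19 other genes of the Kir and K2P families were read from the same fit. Of these 12 were tested, 0 rose and 1, Kcnj12, fell by edgeR's quasi-likelihood test, beside 11.6% and 12.2% of all tested genes. At an unadjusted p under 0.05 there were 2, Kcnj12 and Kcnj11, beside 36.6% of all tested genes. DESeq2's Wald test passed both. Kcnj11 encodes Kir6.2, the pore of ATP-sensitive channels, and is named for this reason after its values were seen. It held 21.6, 27.15, 16.002 and 10.3 normalised counts in controls and 27.08, 74.2 and 37.3 in knockouts, with overlap at the lowest knockout library. Its log2 fold change was 1.34, with an edgeR adjusted p of 0.0641, and it was 0.81 (adjusted p 0.248) without knockout replicate 2 and 1.60 (0.0170) with the share of ribosomal reads fitted as a covariate. The median of the 12 was -0.05, with a range of -1.39 to 1.34. A group of 5 genes (Kcnj1, Kcnj5, Kcnk15, Kcnk16 and Kcnk18) had at most 3 counts in every library, and Kcnj8 and Kcnk7, with 24 and 42 counts in all, were also too low to be tested.

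Kcnj12 (chr11:61022564-61071131, plus strand) encodes Kir2.2, a strongly rectifying subunit that assembles with Kir2.1. It was measured at 1133, 1243, 1801 and 1610.0 normalised counts in controls and 921, 939.6 and 945 in knockouts. All knockout libraries lay below all controls and close to each other. The log2 fold change was -0.63 (SE 0.16, 95% interval -1.01 to -0.25, edgeR adjusted p = 0.0296). It was not past the threshold without control replicate 4 (0.0791), without knockout replicate 1, 2 or 3 (0.106, 0.0904 and 0.0853), without both replicate 3 libraries (0.0816) or with the share of ribosomal reads fitted as a covariate (0.0541). With Kcnj12, at 10.2 RPKM over all libraries, Kcnj4 at 9.45 and Kcnk13 at 3.00 were the highest of the 19. Kcnj4, which encodes Kir2.3, held 771, 949, 1033 and 1105 normalised counts in controls and 740.2, 1011 and 641 in knockouts. The groups overlapped (log2 fold change -0.27, 95% interval -0.70 to 0.15, edgeR adjusted p = 0.330). Kcnk13, which encodes the K2P channel THIK-1, held 352, 380.1, 717 and 329 in controls and 276, 414 and 401 in knockouts. It overlapped too, at -0.28 (95% interval -0.99 to 0.42, adjusted p = 0.555).

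A list of 18 genes for receptors, G proteins, scaffolds and other proteins that work with these channels was read in the same way. Of these 17 were tested, 6 rose and 1 fell, beside 11.6% and 12.2% of all tested genes. The median log2 fold change was 0.44, beside -0.0037 for all tested genes. The partners, too, were chosen with earlier results of these data known, and the comparison is a description only. Aqp4, the water channel that shares astrocyte endfeet with Kir4.1, rose most among those that passed. It held 15639, 17230.1, 12481 and 6273 normalised counts in controls and 27719, 31091 and 29602 in knockouts. The groups were far apart, and control replicate 4 was the lowest library. The log2 fold change was 1.19 (SE 0.30, edgeR adjusted p = 0.0288), and the adjusted p was 0.0536 without control replicate 3 and 0.0640, 0.0914 or 0.0650 without knockout replicate 1, 2 or 3. Aqp4 is also in the astrocyte list.

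The other partners that passed are named after their values were seen. Gabbr1, a subunit of the GABA-B receptor that opens GIRK channels, had a log2 fold change of 0.76 (edgeR adjusted p = 0.0295), and Adora1, the adenosine receptor that does the same, had 0.55 (0.0272). Gnb5, a G protein beta subunit that works with RGS proteins, had 0.51 (0.0141). The scaffold Dlg4 had 0.61 (0.0404) and Snx27, a sorting protein that binds GIRK subunits, 0.18 (0.0409). Dlg1, a scaffold that binds the tails of Kir channels, fell, with 9219, 9650.3, 9704 and 10377 normalised counts in controls and 5442, 4761 and 5263 in knockouts. All knockouts lay far below all controls, at a log2 fold change of -0.92 (SE 0.07, edgeR adjusted p = 0.000214). Gnb5 and Dlg1 passed in each alternative that left out 1 library. Without control replicate 3 or knockout replicate 2 the adjusted p was 0.0530 or 0.101 for Gabbr1, and it was 0.0538 or 0.0924 for Adora1, which was at 0.0619 without knockout replicate 1. Dlg4 stayed past the threshold only without control replicate 2 or knockout replicate 3 (otherwise 0.0675 to 0.118), and Snx27 only without control replicate 2 (otherwise 0.0548 to 0.103). With the replicate block Snx27 was at 0.115. The number of partners that passed was 7 in all, 2 without control replicate 3, 3 without knockout replicate 1 and 2 without knockout replicate 2. With Aqp4 at 89.5 RPKM, Gnb1 (163) and Dag1 (41.0), the beta subunit that GIRK channels bind and the dystroglycan that anchors Kir4.1 complexes, were the highest of the list, with log2 fold changes of 0.06 and -0.07 and edgeR adjusted p of 0.600 and 0.347.

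**Figure D5:**
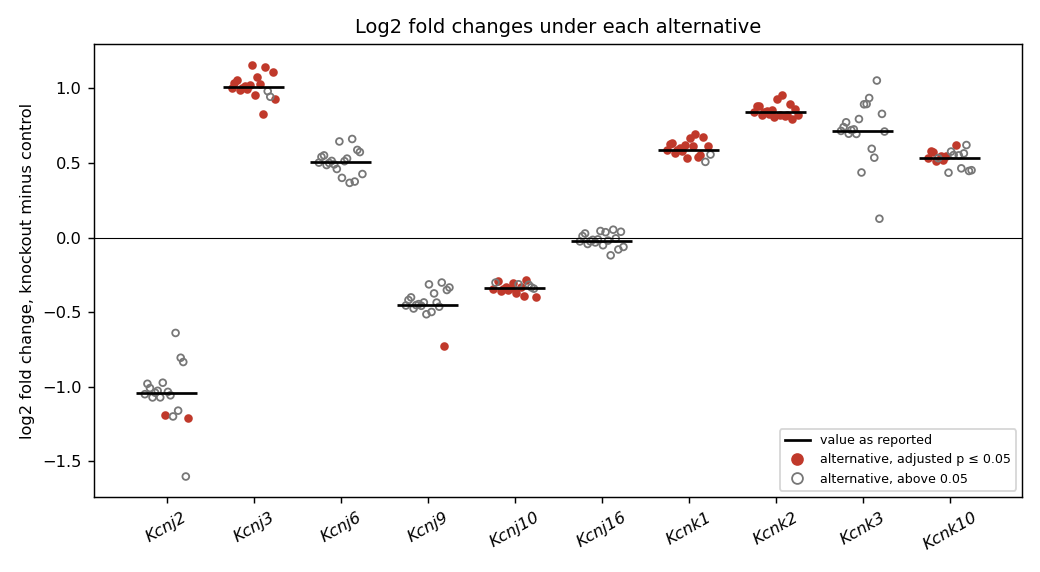
Log2 fold change of each channel gene in the fit used here and under 18 alternatives, 1 point per alternative, filled where the adjusted p was at most 0.05, and a line for the value as reported. Kcnk2 passes in 18 of 18, Kcnj3 and Kcnk1 in 16, Kcnj10 in 13 and Kcnk10 in 8, and Kcnj16 lies on both sides of 0.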

How the data were processed

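RNA from 7 cultures (4 wildtype control, 3 Klf13 knockout) was sequenced, 1 library each. The authors deposited whole-number counts per gene, without normalization. Per the submitters' processing notes and the study's methods, reads were trimmed with Trimmomatic 0.36, mapped with STAR 2.5.2b to mouse GRCm38, and unique hits within exons were counted with Subread 1.5.2. The annotation release and strand setting are not given in the sources used here. Symbols were matched for 48970 of 49315 gene identifiers.

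The counts were fitted with edgeR 4.0.16 in R 4.3.3 (filterByExpr by group, TMM factors, robust quasi-likelihood test with the group as the only term), two-sided, with Benjamini-Hochberg adjustment over 18352 genes. A gene rose or fell where its adjusted p did not exceed 0.05, and was called where the absolute log2 fold change was also at least 1. Normalised counts are counts divided by the TMM-scaled library size, times the mean scaled size. RPKM was computed here from the scaled library sizes and the exon lengths in the files. A count of 0 allows up to 3 counts, or 0.0503 to 0.122 CPM, which covers counting error only. P-values weigh the difference between the groups against the spread between these cultures, a spread estimated in part from all genes together. The script was tested on simulated data.

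The members, the other lists and the markers were chosen with earlier results of these data known. Named with values were all members, Klf13, other Kir and K2P genes that passed, partners that were called, and the 3 highest of either list by RPKM. Ratios, the genes set beside microglia and some partners were chosen after values were seen.

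What equal replicate numbers share is not given in the sources used here. Deviations from the group means over the tested genes correlated at 0.113, 0.463 and 0.168 between libraries of the same number, and at -0.529 to 0.197 otherwise (across genes, which are no independent replicates). A further fit therefore took the number as a pairing. Control replicate 4 has no knockout of its number, so that the block compares the groups within replicates 1 to 3 only. Alternatives were DESeq2 1.42.0 (its Wald test and its size factors), limma 3.58.1 (voom), library sizes without ribosomal RNA genes, that share as a covariate, upper quartile or no scaling factors, other filters (none, or at least 10 counts in every library), the block, each library left out, and, chosen after seeing the data, both replicate 3 libraries left out. DESeq2's adjusted p of NA stayed NA. Promoter windows are RefSeq's. The values of 1 partner gene are not reported here.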

Additional observations from a re-analysis of the deposited data

Results flagged for a closer look

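In 5 of 47 sets of control values, 1 of the 4 control libraries lay farther from the rest than a Dixon test at the 95% level allows. Chance marks about 1 in 20 such sets. Groups of 3 were not examined in this way.

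Kcnk2 was at 886 normalised counts in control replicate 2, against 681 in the next control. Without this library the log2 fold change was 0.95, beside 0.84 with it. Kcnk6, a K2P gene outside the 10, was at 604 in control replicate 3, against 144 in the next control, and Kcnk13 was at 717 in the same library, against 380.1. The microglial markers summed to 1379.7 RPKM in control replicate 3, against 369 in the next control. Without this library the log2 fold change of Kcnk6 was 0.70 (edgeR adjusted p = 0.118) in place of -0.18, and that of Kcnk13 was 0.05 (adjusted p = 0.882) in place of -0.28. Rgs7bp, which encodes a membrane anchor of RGS proteins, was at 1328 normalised counts in control replicate 3, against 1545 in the next control.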

How the results depend on the processing

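Klf13 passed in all 18 alternatives (log2 fold change -3.75 to -3.61), as did Kcnk2, and the 9 members other than Kcnj16 kept their sign in each. Leaving out 1 library at a time, the members that rose numbered 1 to 4 (4 with all libraries), those that fell 0 to 1 (1 with all, Kcnj9 in place of Kcnj10 without knockout replicate 2), those called 0 to 1 (1 with all), the other Kir and K2P genes that passed 0 to 1 (1 with all), the partners that passed 2 to 8 (7 with all), and of all tested genes those called higher 335 to 810 (729 with all, 335 without knockout replicate 2) and called lower 388 to 577 (565 with all). With the replicate block, 2 members fell, Kcnj10 (log2 fold change -0.30, adjusted p 0.0474) and Kcnj2 (-1.19, 0.00694), 3 rose, since Kcnk10 missed the threshold (0.0978), and 2 were called, Kcnj3 (1.16, 0.00578) and Kcnj2. Among the partners Snx27 missed the threshold with the block (0.115) and Gabbr2 passed (0.0144). The block changed no call of another member. Without both replicate 3 libraries, 2 members rose, 2 fell, 0 of the other Kir and K2P genes and 3 partners passed, the member called was Kcnj2 in place of Kcnj3, and 430 of all tested genes were called higher. Upper quartile normalization left 0 members that fell (Kcnj10 at 0.0541). Members called were 0 by DESeq2's Wald test, 0 with library sizes without ribosomal RNA genes and 0 with the ribosomal share as a covariate, with Kcnj3 at log2 fold changes of 0.998, 0.99 and 0.95. DESeq2's Wald test passed 2 of the other Kir and K2P genes, and with the ribosomal share as a covariate Kcnj11 (1.60, adjusted p 0.0170) passed in place of Kcnj12 (0.0541). Without a filter on low counts, 3 partners passed. The cause of these shifts was not tested, apart from the fewer samples where libraries were left out. Low counts kept 7 of the other Kir and K2P genes out of the test.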

Other observations

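Ratios between channel subunits within a library, in RPKM, were computed for 4 pairs picked after the values were seen, and carry no test. Kcnj10 over Kcnj16, the Kir4.1 and Kir5.1 subunits of mixed glial channels, was 40.8, 44.0, 49.0 and 42.0 in controls and 34.8, 32.3 and 38.4 in knockouts. All knockout libraries lay below all controls, while Kcnj16 averaged 3.74 RPKM in controls and 3.69 in knockouts.

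Within the GIRK subunits, Kcnj3 over Kcnj9 was 2.01, 1.42, 0.930 and 2.06 in controls and 5.83, 3.53 and 4.27 in knockouts. Kcnj3 over Kcnj6 was 2.37, 2.10, 1.82 and 2.05 in controls and 2.61, 3.62 and 2.78 in knockouts. Both ratios were higher in every knockout library than in any control. The ratio of the TREK genes, Kcnk2 over Kcnk10, overlapped between the groups, at 1.27, 1.43, 1.25 and 1.57 in controls and 1.63, 2.05 and 1.48 in knockouts.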
